A study of Mus musculus with 15 samples.

Results

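The genes described here were 10 components of transforming growth factor beta (TGF-beta) and activin signalling in the mouse mammary gland. They comprised the ligand genes Tgfb1, Tgfb2, Tgfb3, Inhba, Inhbb and Bmp4, the latent binding protein gene Ltbp1, and the receptor genes Tgfbr1, Tgfbr2 and Tgfbr3. All 10 were chosen by gene name, out of 18193 genes that had a probe set (a group of probes on the array) assigned to that gene alone, and each was followed on its brightest such probe set. Of these 18193 genes, 12143 exceeded the array's median intensity on at least 3 of the 15 arrays and were tested, and all 10 members were among them.

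The study profiled sorted subsets of mammary epithelial cells (MECs) on Affymetrix expression arrays, with 3 arrays for each of 5 populations, to compare the subsets. Alveolar luminal cells (ALs) were sorted as Lin-YFP+ cells at midgestation out of Wap-Cre;R26Y females. The alveolar luminal stem/progenitor cells (ALPs) were Lin-YFP+ cells of the same genotype in adult virgin females. In these mice Cre is expressed under the promoter of Wap, a milk protein gene, and R26Y is a reporter that makes yellow fluorescent protein (YFP) once Cre has acted, so the mark stays in all descendants of a cell that once expressed Cre. The basal population enriched for mammary stem cells (MaSCs, Lin-CD24+CD29hi), luminal progenitors (LPs, Lin-CD24hiCD29+CD61+) and mature luminal cells (MLs, Lin-CD24hiCD29+CD61-) came from wildtype adult virgin females, sorted out of 3 cell suspensions. All females were C57BL/6, and no drug or other agent was given to any population. AL and ALP arrays thus differed in reproductive stage with the genotype shared, whereas AL and the MaSC, LP and ML arrays differed in stage, genotype and sorting gate at once. Whether the replicates of AL and of ALP came from separate animals was not stated, so each p-value speaks only of the spread among these samples, part of which may be technical.

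TGF-beta is secreted as a latent complex tethered to the matrix by latent TGF-beta binding proteins. Once freed, it brings type I and type II receptor kinases together on the cell surface, and these phosphorylate Smad proteins that enter the nucleus and regulate transcription. Activins, which are dimers of inhibin beta subunits, use related receptors and the same Smads, while bone morphogenetic proteins (BMPs) act through a separate group of Smads. In the mammary gland TGF-beta is best known as a brake on ductal growth and on milk protein production, and the activin subunit encoded by Inhbb is required in mice for ductal and alveolar development.

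Tgfb1 and Tgfb2, ligands of opposite pattern over the populations, are shown first by the 250 bases upstream of their transcription starts, taken from RefSeq on build GRCm38.p6. The Tgfb1 sequence lies at chr7:25686752-25687001 on the plus strand and the Tgfb2 sequence at chr1:186705990-186706239 on the minus strand. Both are written 5′ to 3′ along the gene, ending at the base before the start, and capitals mark every match, on either strand, to 5 motifs searched by their letters, namely the GC box GGGCGG, the TATA box TATAAA, the E-box CACGTG, the Smad element CAGAC and the RUNX element TGTGGT or TGCGGT.
Tgfb1: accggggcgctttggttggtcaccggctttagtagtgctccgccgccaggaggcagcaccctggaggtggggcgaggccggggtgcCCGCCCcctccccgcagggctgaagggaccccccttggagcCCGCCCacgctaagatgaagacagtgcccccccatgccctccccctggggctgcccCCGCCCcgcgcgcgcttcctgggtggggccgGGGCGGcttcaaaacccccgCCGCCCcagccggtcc
Tgfb2: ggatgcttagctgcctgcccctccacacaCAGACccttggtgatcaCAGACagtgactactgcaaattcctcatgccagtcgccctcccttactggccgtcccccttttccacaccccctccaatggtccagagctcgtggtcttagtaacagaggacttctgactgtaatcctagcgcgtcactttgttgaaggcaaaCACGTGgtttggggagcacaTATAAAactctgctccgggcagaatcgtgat
The Tgfb1 sequence was 75.2% G and C and held 5 GC boxes and no match to the other motifs, whereas the Tgfb2 sequence was 53.6% G and C, against a median of 52.4% over the 32851 RefSeq starts searched. Upstream of Tgfb2 a TATA box began 31 bases and an E-box 51 bases before the start, and Smad elements began 221 and 204 bases before it. A GC box was present in 32.7% of all starts, a TATA box in 12.4%, the E-box in 6.02%, the Smad element in 42.2%, and the RUNX element in 14% in its TGTGGT form and 5.1% in its TGCGGT form. RefSeq starts were matched for 8 of the 10 members (10 starts in all), and among these starts the GC box was found in 4, the Smad element in 5, the TATA box in 2 (Tgfb2 and Inhba), the E-box in 2 (Tgfb2 and Bmp4) and the RUNX element in 1 (the second start of Ltbp1). Tgfb3 and Tgfbr3 were not matched. No motifs overlapped, and a match is a description of the letters only.

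Each value is a probe set's intensity on a linear scale, normalised by the authors, and it ranks populations for one gene but does not compare different genes. Array medians ran between 136.8 and 209.9, and replicates of a population correlated at Pearson r = 0.984 to 0.989 in AL, 0.902 to 0.9699 in ALP, 0.943 to 0.973 in MaSC, 0.976 to 0.986 within LP and 0.979 to 0.983 in ML, against 0.695 to 0.961 between populations. ALP replicate 3 stood apart. Its summed intensity over 12 immune markers was 74432, against 3842 and 5014 on the other ALP arrays and 1301 to 6713 over AL, MaSC, LP and ML, and its sum over 11 endothelial markers was 26978, against 3720 and 7097 on the other ALP arrays. Its basal marker sum (10 genes) was 48435, against 14192 and 11539 on the other ALP arrays. Basal sums were 26000.1 to 31521 in AL, 98915 to 104973 in MaSC, 4704 to 7365 on LP arrays and 1795 to 4607 in ML. Milk protein sums (8 genes) were 83514 to 93957 in AL, against at most 26807 elsewhere. Sums over 15 fibroblast markers were 36101 to 50163 in AL, 56386 to 127785 in ALP, 18280 to 22494 in MaSC, 42210 to 66325 on LP arrays and 4155 to 10569 in ML. MaSC replicate 3 had the lowest sum over 9 luminal markers of the 15 arrays, at 69851, against 88713 and 77776 on the other MaSC arrays. No marker of these lists was at an intensity of 0 on any array. In sorted bulk samples, fewer cells of a type and less RNA per cell cannot be told apart.

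**Figure D1:**
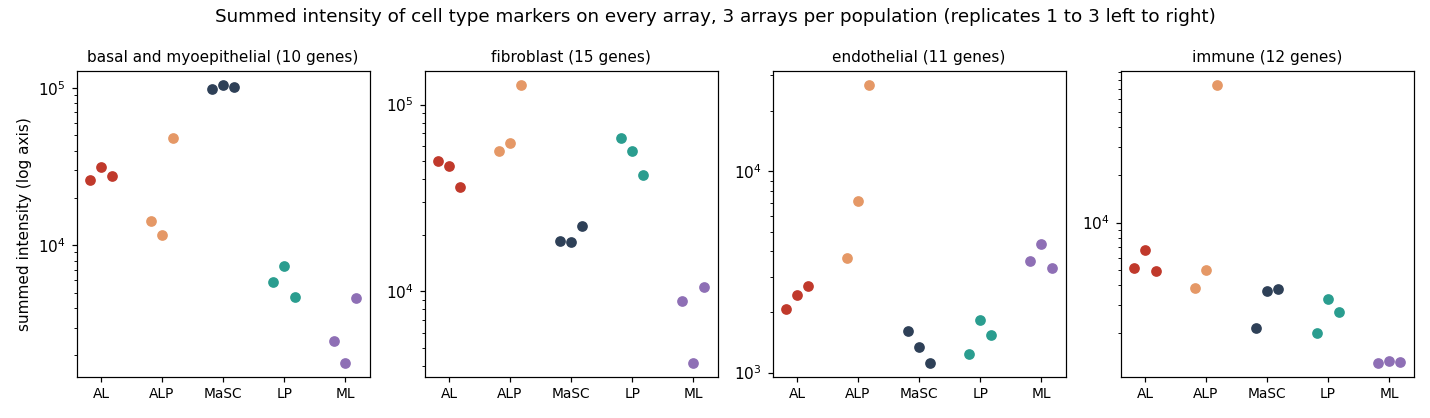
Summed intensity of the basal, fibroblast, endothelial and immune marker lists on each of the 15 arrays (vertical axis, log scale), with AL, ALP, MaSC, LP and ML from left to right and 1 point per array. ALP replicate 3 lies far above its population in the immune (74432) and endothelial (26978) lists, and ML lies lowest in the fibroblast list, at 4155 to 10569.

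Populations were compared in all 10 pairs with limma, using Benjamini-Hochberg adjustment over the 12143 genes, and a difference was called at an adjusted p under 0.05. Differences are given as fold and as log2 of the population named first over the other, ± SE. Of the 100 combinations of member and pair, 47 were called, between 2 for Bmp4 and 7 for Tgfbr3. The pairs share populations, so calls in different pairs are not independent of each other.

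Tgfb1, the founding TGF-beta ligand, was low in AL and LP and high in MaSC and ML. Its intensities were 142, 246 and 232 in AL and 299, 558 and 1301 in ALP. The AL value of 142, on replicate 1, lay below its array median. MaSC arrays gave 1043, 784 and 1062, LP arrays 183, 229.6 and 266, and ML arrays 1503, 1249 and 1018. AL and LP overlapped each other and lay below every array of ALP, MaSC and ML, whereas ALP spread from just above LP up to the range of ML. Tgfb1 was lower in AL than in ML (6.17-fold, log2 difference -2.63 ± 0.42, adjusted p = 0.000282), in MaSC (4.74-fold, log2 difference -2.25 ± 0.42, adjusted p = 0.000763) and in ALP (2.99-fold, log2 difference -1.58 ± 0.42, adjusted p = 0.0113). It was higher in MaSC than in LP (4.27-fold, log2 difference 2.09 ± 0.42, adjusted p = 0.00234) and lower in LP than in ML (5.55-fold, log2 difference -2.47 ± 0.42, adjusted p = 0.000637). AL and LP did not differ by the test, with a log2 difference of -0.15 and a 95% interval of -1.07 to 0.77. The highest ALP value, 1301, was that of replicate 3. Without that array the difference of AL from ALP was -1.02 (adjusted p = 0.0228), a smaller one in the same direction, and ALP became lower than ML (-1.60, adjusted p = 0.00222, against -1.05 and 0.0707 with it). The call of AL against ALP was lost with only the arrays of these populations (adjusted p = 0.0868) and by the methods' t-test, which takes each gene's own spread in these arrays alone (adjusted p = 0.158). Immune, endothelial and basal marker sums were all highest within ALP on that array, and their part in the Tgfb1 level was not tested.

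**Figure D2:**
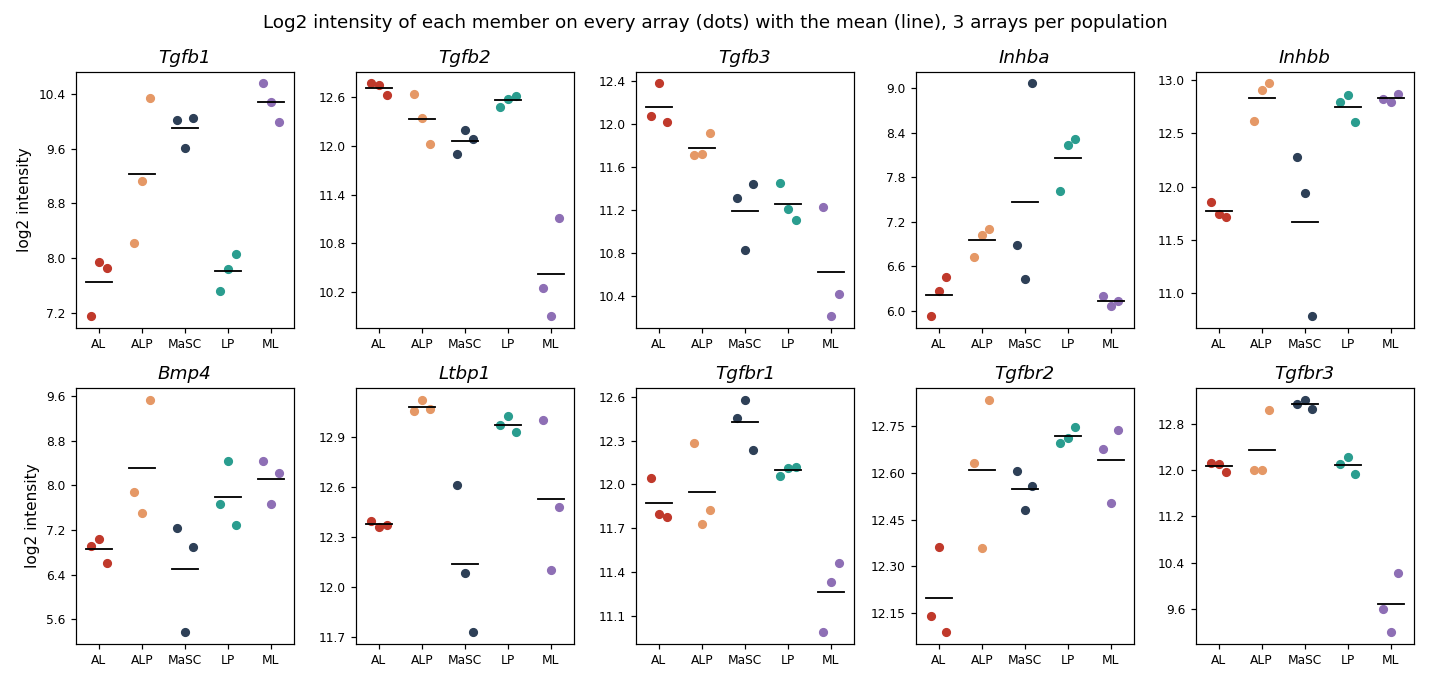
Log2 intensity of each of the 10 genes on each array (1 panel per gene with its own vertical axis, 1 point per array), with AL, ALP, MaSC, LP and ML from left to right and a bar at each population's mean. Tgfb1 lies low in AL and LP, Tgfb2 and Tgfbr3 lie low in ML, and Inhbb lies low in AL and MaSC.

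Tgfb2, the isoform that depends most on the co-receptor encoded by Tgfbr3, showed nearly the reverse order. Intensities were 6969.9, 6900.4 and 6331 in AL, 6356, 5190.4 and 4146 in ALP and 3837, 4687 and 4334 in MaSC. They were 5707, 6125 and 6277 in LP and 1218, 961 and 2218 in ML. Every ML array lay below every array of the other populations, which among themselves spanned 3837 to 6969.9. Tgfb2 was higher in AL than in ML (4.90-fold, log2 difference 2.29 ± 0.25, adjusted p = 1.49e-05), and the same held for ALP (3.75-fold, adjusted p = 0.000145), MaSC (3.11-fold, adjusted p = 0.000211) and LP (4.39-fold, adjusted p = 5.43e-05). Tgfb2 was also higher in AL than in MaSC, by 1.57-fold (adjusted p = 0.0383), although this call was lost when any array of AL or MaSC was left out (adjusted p between 0.0533 and 0.104) or the filter on dim probe sets was dropped (adjusted p = 0.0552). By the methods' t-test Tgfb2 in ALP against ML was not called (adjusted p = 0.0607). All 4 probe sets of Tgfb2 were lower in ML in each of the 4 comparisons, by 3.24 to 10.7-fold against AL, 2.83 to 5.98-fold against ALP, 2.32 to 4.82-fold against MaSC and 3.29 to 7.69-fold against LP. Across the 15 arrays the log2 intensities of Tgfb1 and Tgfb2 correlated at r = -0.76, a description over arrays that share populations. The fibroblast marker sum was likewise lowest in ML, where 4 to 5 of the 15 genes exceeded the array median, against 15 in AL, ALP and LP and 13 to 14 in MaSC, and its part in the Tgfb2 difference was not tested.

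Tgfb3, the third isoform, was highest in AL. AL arrays gave 4319, 5309.7 and 4132 and ALP arrays 3342, 3373 and 3852. Intensities were 2541, 1824 and 2781 in MaSC, 2791, 2373 and 2206 on LP arrays and 2398, 1190.3 and 1370.1 in ML. The AL arrays lay above all others, and the ML arrays overlapped those of MaSC and LP through ML replicate 1. Tgfb3 was higher in AL than in ML (2.89-fold, log2 difference 1.53 ± 0.24, adjusted p = 0.000219), MaSC (1.94-fold, adjusted p = 0.00444) and LP (1.86-fold, adjusted p = 0.00924), and higher in ALP than in ML (2.23-fold, adjusted p = 0.00303). LP exceeded ML by 1.55-fold (adjusted p = 0.0436), a call kept in 5 of 15 refits that each left out 1 array, and the value without ML replicate 2 was 0.43 on the log2 scale (adjusted p = 0.175). This call was also lost when each array was centred on its median (0.39, adjusted p = 0.189) and by the methods' t-test (adjusted p = 0.176), which did not call ALP against ML either (adjusted p = 0.0883). Neighbouring populations in the order AL, ALP, LP, MaSC, ML did not differ by the test.

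Inhba and Inhbb encode the beta subunits whose dimers form the activins, and they differed in level of detection and in pattern. Inhba was dim. It exceeded the array median on all 3 LP arrays and on MaSC replicate 3, and on no array of AL, ALP or ML. Intensities were 61.1, 77.3 and 87.8 in AL and 106, 129.9 and 137 in ALP, and 118, 86.3 and 534 in MaSC, 195, 302 and 317 on LP arrays and 73.5, 67.1 and 70.3 in ML. LP lay above all arrays except MaSC replicate 3. Inhba met the filter of 3 arrays above the median only through LP, so its calls of LP against other populations are not independent of that filter. Inhba was lower in AL than in LP (3.56-fold, log2 difference -1.83 ± 0.51, adjusted p = 0.0119) and higher in LP than in ML (3.78-fold, adjusted p = 0.00863), calls also made without that filter. It was also called higher in MaSC than in ML (2.51-fold, adjusted p = 0.0401), but without MaSC replicate 3 the log2 difference was 0.53 (adjusted p = 0.0742), against 1.33 with it. Only 3 of 10 other ways of processing the data kept that call. It was lost after median centring (1.09, adjusted p = 0.0817), without a filter on dim probe sets, with quantile normalisation, with only the arrays compared and by the methods' t-test, among others. That call was also lost in 7 of the other refits that left out 1 array. Where no array of a population exceeded its median, a fold against it depends on signal near background, so a lower figure is given too, with each such array counted at its median. On that reckoning Inhba was at least 1.75-fold lower in AL than in LP, at least 1.93-fold higher in LP than in ML and at least 1.28-fold higher in MaSC than in ML.

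Inhbb was bright on all arrays and split the populations into groups. Intensities were 3695, 3432 and 3357 in AL, 6271, 7694 and 8011 in ALP and 4977, 3917 and 1763 in MaSC. They were 7087, 7428 and 6223 in LP and 7247, 7099 and 7474 in ML. Every AL and MaSC array lay below every ALP, LP and ML array. Inhbb was lower in AL than in ALP (2.09-fold, log2 difference -1.06 ± 0.28, adjusted p = 0.0111), ML (2.08-fold, adjusted p = 0.00773) and LP (1.97-fold, adjusted p = 0.0144). In MaSC it was lower than in ML (2.24-fold, adjusted p = 0.00407) and LP (2.12-fold, adjusted p = 0.00989), and ALP exceeded MaSC (2.24-fold, adjusted p = 0.00777). Leaving out MaSC replicate 3, the lowest array, lowered these log2 differences to -0.72, -0.64 and 0.72 and all 3 stayed called (adjusted p = 0.00128, 0.00423 and 0.00315). By the methods' t-test none of the 3 was called (adjusted p = 0.105, 0.157 and 0.198), and with only the arrays compared MaSC against LP (adjusted p = 0.082) and ALP against MaSC (adjusted p = 0.117) were not. AL and MaSC did not differ by the test (log2 difference 0.10, adjusted p = 0.771), although AL was lower without MaSC replicate 3 (-0.34, adjusted p = 0.0483). On MaSC replicates 1, 2 and 3, sums over 5 markers of hormone-sensing mature luminal cells were 19524, 14000 and 5797. Sums over 7 luminal progenitor markers were 24512, 17542 and 15342 on these arrays. The part of either list in the Inhbb levels of MaSC was not tested. A second, dimmer probe set of Inhbb was called in the same direction in each of the 6 comparisons in which the bright one was, and there it was 4.81-fold lower in AL than in ALP. Its AL mean was 140.4 beside AL array medians of 147.5 to 158.5, so this fold depends on signal near background.

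Bmp4, a ligand of the BMP branch, was dim and scattered between replicates. Its intensities were 120.2, 132 and 97.7 in AL, 235, 183 and 743 in ALP and 151, 41.4 and 119 in MaSC. LP arrays gave 204, 345 and 157 and ML arrays 349, 203 and 298. All AL and MaSC arrays were below their array medians, and AL overlapped MaSC. Bmp4 was called higher in ALP than in MaSC (3.50-fold, log2 difference 1.81 ± 0.56, adjusted p = 0.0242) and lower in MaSC than in ML (3.05-fold, log2 difference -1.61 ± 0.56, adjusted p = 0.0258). The first call was lost without ALP replicate 3 (1.19, adjusted p = 0.0812) or without MaSC replicate 2 (1.24, adjusted p = 0.0951), and the second without MaSC replicate 2 (-1.04, adjusted p = 0.115), ML replicate 1 (-1.44, adjusted p = 0.0809) or ML replicate 3 (-1.55, adjusted p = 0.0636). By the methods' t-test neither was called (adjusted p = 0.243 and 0.102), nor was the first with only the arrays compared (adjusted p = 0.151). With MaSC arrays counted at their medians, Bmp4 was at least 1.96-fold higher in ALP than in MaSC and at least 1.71-fold lower in MaSC than in ML.

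Ltbp1, which tethers latent TGF-beta to the matrix, was high in ALP and LP. Intensities were 5399, 5260.2 and 5308 in AL, 8525, 8936 and 8588 in ALP and 6258, 4349.9 and 3401 in MaSC. They were 8048, 8339.5 and 7802 on LP arrays and 8204, 4397 and 5732 in ML. The ALP arrays lay above every other array, the AL arrays lay close together, and ML spread over most of the range covered by MaSC and LP. Ltbp1 was lower in AL than in ALP (1.63-fold, log2 difference -0.71 ± 0.22, adjusted p = 0.0243) and LP (1.51-fold, adjusted p = 0.0439), higher in ALP than in MaSC (1.92-fold, adjusted p = 0.00665) and lower in MaSC than in LP (1.78-fold, adjusted p = 0.0109). The call of AL against LP was kept in 5 of the 15 refits that left out 1 array, and that of AL against ALP was lost without any AL array or ALP replicate 2 (adjusted p between 0.055 and 0.0629). Without ALP replicate 3 the difference of AL from ALP was -0.71 (adjusted p = 0.0452), and after median centring neither AL against ALP (-0.43, adjusted p = 0.111) nor AL against LP (-0.50, adjusted p = 0.079) was called. ALP against MaSC (adjusted p = 0.121) and MaSC against LP (adjusted p = 0.0853) were not called by the methods' t-test. All 3 probe sets of Ltbp1 were called in the same direction for AL against ALP and for AL against LP, although the other 2 exceeded the array median on no AL array. They were dim in LP too, with means of 160 and 126 beside LP array medians of 158.4 to 165.7. With AL arrays counted at their medians, the first of them was at least 1.05-fold lower in AL than in LP and at least 1.40-fold lower than in ALP. The second was at least 1.11-fold lower in AL than in ALP, and its LP mean lay below the AL array medians, so it gave no such figure against LP. These probe sets exceeded the median on only 4 and 3 arrays, 2 of them ALP arrays in each case. Their calls of AL against ALP are thus not independent of the filter on dim probe sets.

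Among the receptors, Tgfbr1, the type I kinase of TGF-beta, was highest in MaSC and lowest in ML. Its intensities were 4217, 3557 and 3516 in AL, 4975, 3398 and 3625 in ALP and 5620.2, 6123 and 4829 in MaSC. LP gave 4269, 4429 and 4447 and ML 2030.2, 2575 and 2823. No ML array reached any array of another population, and MaSC overlapped only ALP, through ALP replicate 1. Tgfbr1 was higher in MaSC than in ML (2.24-fold, log2 difference 1.16 ± 0.16, adjusted p = 0.00011), and likewise in LP (1.79-fold, adjusted p = 0.00133), ALP (1.61-fold, adjusted p = 0.00637) and AL (1.53-fold, adjusted p = 0.00688). It was lower in AL than in MaSC (1.47-fold, adjusted p = 0.0109) and lower in ALP than in MaSC (1.39-fold, adjusted p = 0.0342), where the last call was lost without ALP replicate 2 (-0.37, adjusted p = 0.127), ALP replicate 3 (-0.42, adjusted p = 0.0933), MaSC replicate 1 (-0.46, adjusted p = 0.0674) or MaSC replicate 2 (-0.40, adjusted p = 0.111). It was also lost without a filter on dim probe sets (adjusted p = 0.0538), with only the arrays compared (adjusted p = 0.152) and by the methods' t-test (adjusted p = 0.205). After each array was centred on its median, the differences of AL from ML (0.47, adjusted p = 0.0598), AL from MaSC (-0.46, adjusted p = 0.0626) and ALP from ML (0.27, adjusted p = 0.234) kept their direction and were no longer called, and ALP from ML was not called by the methods' t-test either (adjusted p = 0.115).

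Tgfbr2, the type II kinase that binds TGF-beta first, varied least. Intensities were 4515, 5269 and 4355 in AL, 6342, 5251 and 7306 in ALP and 6234, 5714 and 6029.6 in MaSC. They were 6638, 6709 and 6869 in LP and 6545, 5811 and 6834 in ML. The AL arrays lay below all others except that AL replicate 2 exceeded ALP replicate 2. On this probe set Tgfbr2 was lower in AL than in LP (1.43-fold, log2 difference -0.52 ± 0.12, adjusted p = 0.00406), ML (1.36-fold, adjusted p = 0.00793), ALP (1.33-fold, adjusted p = 0.0166) and MaSC (1.28-fold, adjusted p = 0.0234). The other passing probe set of the gene, much dimmer, ran the opposite way, with mean intensities of 220.4 in AL, 175 in ALP, 130 in MaSC, 151 in LP and 153 in ML, and was called 1.72-fold higher in AL than in MaSC (adjusted p = 0.0116). When both probe sets were averaged no difference of AL was called and its sign turned against MaSC (0.22, adjusted p = 0.184), LP (0.0049, adjusted p = 0.982) and ML (0.049, adjusted p = 0.785), so the direction for Tgfbr2 rests on the choice of probe set. Without ALP replicate 3 the difference of AL from ALP was -0.30 (adjusted p = 0.0571), after median centring -0.14 (adjusted p = 0.336), and it was also lost by the methods' t-test (adjusted p = 0.142). Centring likewise ended the call of AL against MaSC (-0.26, adjusted p = 0.0736), and so did leaving out AL replicate 1, AL replicate 3, MaSC replicate 1 or MaSC replicate 3 (adjusted p between 0.0508 and 0.0869).

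Tgfbr3 encodes betaglycan, the co-receptor that presents TGF-beta and also inhibin to their receptors, and it gave the largest difference among the members. Intensities were 4467, 4384 and 4009 in AL, 4082, 4074 and 8353 in ALP and 8956, 9471 and 8520.2 in MaSC. LP arrays gave 4403, 4806 and 3893 and ML arrays 785, 592 and 1202. MaSC lay above every other array, ML below every other array, and AL, ALP and LP lay together between them except for ALP replicate 3. Tgfbr3 was higher in MaSC than in ML (10.9-fold, log2 difference 3.45 ± 0.28, adjusted p = 2.53e-06) and LP (2.06-fold, adjusted p = 0.0113), and lower in AL than in MaSC (2.10-fold, adjusted p = 0.00612). ALP (6.29-fold, adjusted p = 3.2e-05), LP (5.29-fold, adjusted p = 5.43e-05) and AL (5.20-fold, adjusted p = 2.71e-05) each exceeded ML. In ALP it was lower than in MaSC (1.73-fold, adjusted p = 0.0421), a call kept in only 3 of the 15 refits that left out 1 array, while without ALP replicate 3 the log2 difference was -1.14 (adjusted p = 0.00265, against -0.79 with it). By the methods' t-test that call was lost (adjusted p = 0.224). A second probe set was below the median on every ML array and, counted at the median there, at least 3.70-fold higher in MaSC than in ML (adjusted p = 7.21e-05). It exceeded the median on only 4 arrays, 3 of MaSC and 1 of ALP. That probe set thus met the filter on dim probe sets only through MaSC, and its calls for MaSC are not independent of the filter. The basal marker sum was also highest in MaSC and lowest in ML, and on ALP replicate 3 it was 48435 beside a Tgfbr3 intensity of 8353. Its part in the Tgfbr3 levels was not tested.

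**Figure D3:**
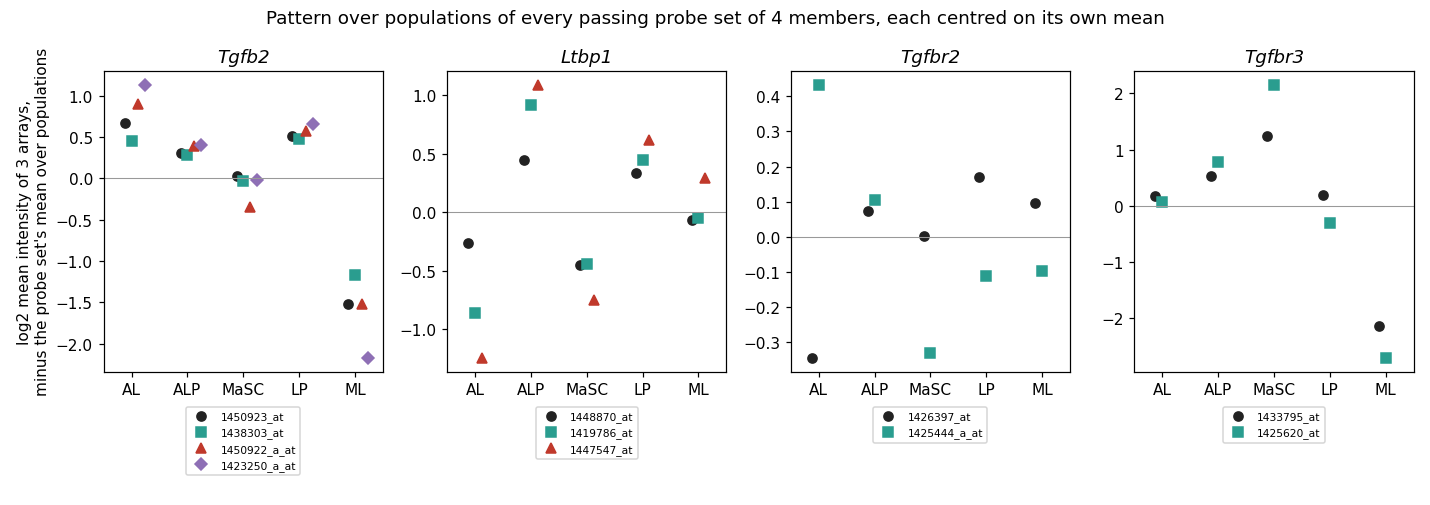
Log2 of the mean intensity of 3 arrays for every passing probe set of Tgfb2, Ltbp1, Tgfbr2 and Tgfbr3, relative to the mean of that probe set's 5 population values (vertical axis). AL, ALP, MaSC, LP and ML run from left to right, with 1 symbol per probe set. The 4 probe sets of Tgfb2 all lie lowest in ML, while the 2 of Tgfbr2 lie on opposite sides of their means in AL.

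Pair by pair, AL differed from ALP in 4 of the 10 members, all lower in AL (Tgfb1, Inhbb, Ltbp1 and Tgfbr2), where 39.9% of all genes tested were called, 18.7% higher and 21.2% lower in AL. The median log2 difference of the 10 members was -0.56, against -0.02 over all genes. After centring arrays on their medians, which moved the all-gene median of this pair by 0.27, Ltbp1 and Tgfbr2 were no longer called and Tgfb3, higher in AL, was. The count was 3 without ALP replicate 3 and 2 without AL replicate 1 or AL replicate 3. AL differed from MaSC in 6 members (59.4% of all genes, 31.3% higher and 28.1% lower in AL), with Tgfb2 and Tgfb3 higher and Tgfb1, Tgfbr1, Tgfbr2 and Tgfbr3 lower in AL. Against LP, 5 members differed (45.5% of all genes, 21.3% higher and 24.2% lower in AL), Tgfb3 being higher and Inhba, Inhbb, Ltbp1 and Tgfbr2 lower in AL. Of these, Inhba met the filter on dim probe sets only through LP, so its call is not independent of that filter. Against ML, 7 differed (53.5% of all genes, 28.7% higher and 24.8% lower in AL), with Tgfb2, Tgfb3, Tgfbr1 and Tgfbr3 higher and Tgfb1, Inhbb and Tgfbr2 lower in AL. For AL against ALP, MaSC and LP the counts lay close to the shares over all genes.

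For the virgin marked cells, ALP differed from MaSC in 5 members (38.4% of all genes, 21.7% higher and 16.7% lower in ALP), with Inhbb, Bmp4 and Ltbp1 higher and Tgfbr1 and Tgfbr3 lower in ALP, and the count was 4 without ALP replicate 3, 3 without ALP replicate 2 or MaSC replicate 1, and 2 without MaSC replicate 2. ALP and LP differed in 0 of the 10 members with limma, where 7.54% of all genes were called, 3.58% higher and 3.95% lower in ALP. At an unadjusted p under 0.05 there were 2 members, Tgfb1 (1.43, adjusted p = 0.0618) and Tgfb3 (0.52, adjusted p = 0.19), and the methods' t-test gave 0 after adjustment and 3 before it. ALP differed from ML in 4 members, all higher in ALP (Tgfb2, Tgfb3, Tgfbr1 and Tgfbr3), where 36.7% of all genes were called, 21.1% higher and 15.6% lower in ALP. Without ALP replicate 3 the count against ML was 5.

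Within the virgin wildtype gland, MaSC differed from LP in 4 members (38.9% of all genes, 15.8% higher and 23.1% lower in MaSC), with Tgfb1 and Tgfbr3 higher and Inhbb and Ltbp1 lower in MaSC. MaSC differed from ML in 6 (59.5% of all genes, 27.1% higher and 32.4% lower in MaSC), with Tgfb2, Inhba, Tgfbr1 and Tgfbr3 higher and Inhbb and Bmp4 lower in MaSC. LP differed from ML in 6 (49% of all genes, 27.3% higher and 21.7% lower in LP), with Tgfb2, Tgfb3, Inhba, Tgfbr1 and Tgfbr3 higher and Tgfb1 lower in LP. The call of Inhba is again not independent of the filter, which it met only through LP. Ordered by level, a gap between neighbouring populations passed the test for Tgfb2 and Tgfbr1 (ML below the rest), Inhbb (AL and MaSC below the rest), Tgfbr3 (MaSC above and ML below the rest) and, on its bright probe set only, Tgfbr2 (AL below the rest). The dim probe set of Tgfbr2 was instead highest in AL, and with both averaged no difference of AL was called. For Tgfb1, Tgfb3, Inhba, Bmp4 and Ltbp1 no neighbours in the order differed by the test.

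**Figure D4:**
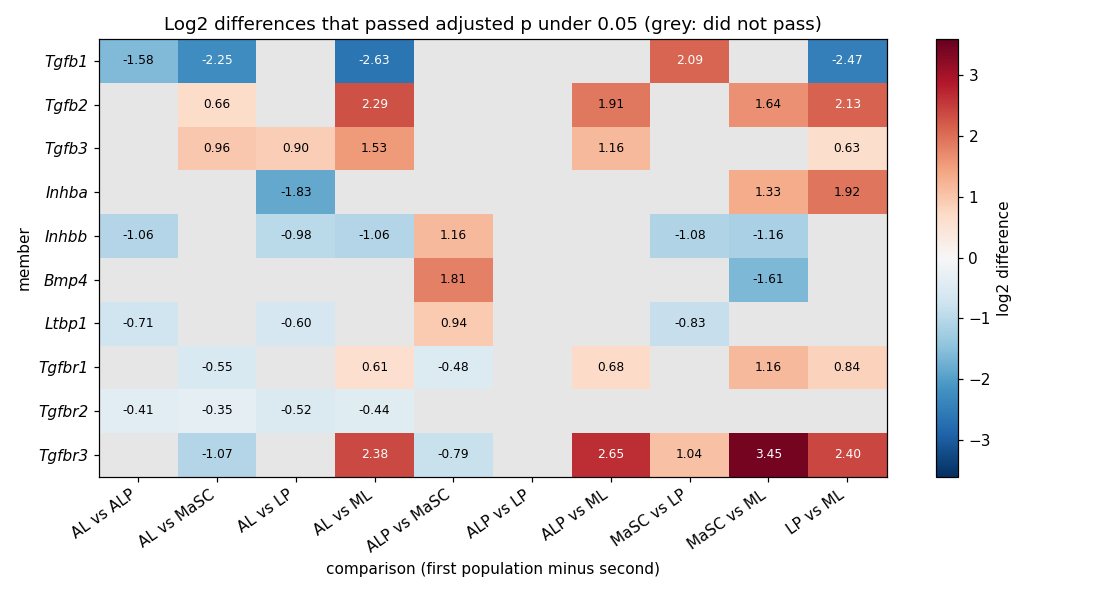
Log2 differences between populations for the 10 genes (vertical axis: ligands, binding protein, receptors) in the 10 pairs (horizontal axis, population named first minus the other), coloured and printed where called at an adjusted p under 0.05 and grey elsewhere. The largest value is 3.45 for Tgfbr3 in MaSC against ML, and ALP against LP is grey throughout.

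The remaining genes of the pathway were followed in 6 lists of 91 genes, of which 83 had a probe set of their own and 63 were tested. AL had 2 of the 63 higher and 29 lower than ALP, where 18.7% and 21.2% of all genes were. Against MaSC, 9 were higher and 33 lower in AL (31.3% and 28.1% of all genes). Against LP, 8 were higher and 26 lower in AL (21.3% and 24.2% of all genes). Against ML the counts were 24 higher and 17 lower in AL (28.7% and 24.8% of all genes) and 29 and 2 in ALP (21.1% and 15.6%). In MaSC they were 38 and 6 (27.1% and 32.4%), and in LP 34 and 6 (27.3% and 21.7%). ALP had 12 higher and 15 lower than MaSC (21.7% and 16.7% of all genes). MaSC had 20 higher and 15 lower than LP (15.8% and 23.1% of all genes). Against LP, ALP had 5 higher and 0 lower (3.58% and 3.95% of all genes). The higher count was 3 without ALP replicate 3, 10 without ALP replicate 1 and 0 without LP replicate 2. Some of these splits moved when each array was centred on its median, to 5 higher and 16 lower in AL against ALP, and to 16 lower in ALP, 14 lower in MaSC and 11 lower in LP against ML. The calls over all genes moved too. After centring, 73.9% of them were higher in AL against ALP, and 18.7% in ALP, 27.9% in MaSC and 30.3% in LP against ML. As normalised, these shares were 46.9%, 57.5%, 45.6% and 55.7%.

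**Figure D5:**
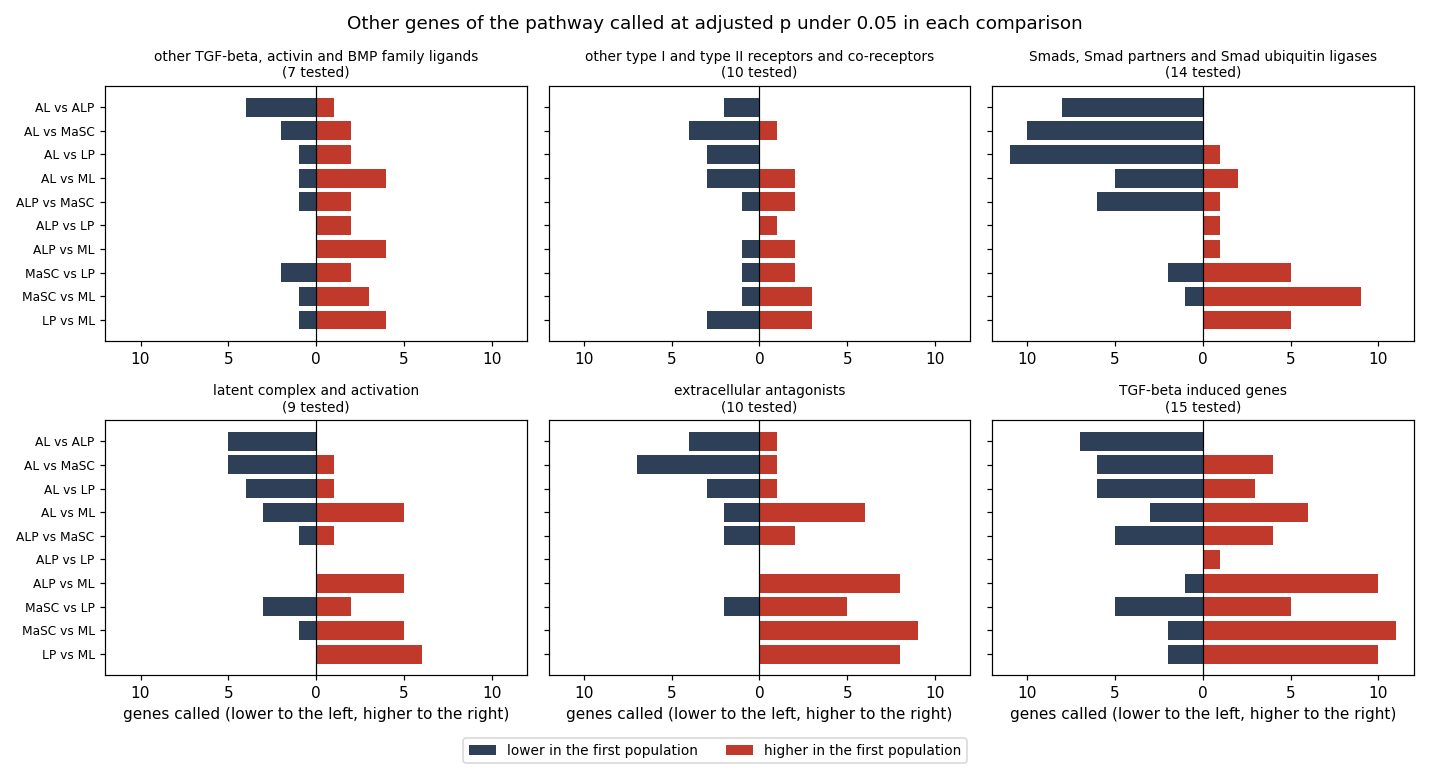
Number of genes called at an adjusted p under 0.05 (horizontal axis, lower in the population named first to the left, higher to the right) in the 10 pairs (vertical axis), with 1 panel for each of the 6 pathway lists. Of 14 Smads and partners AL has 10 lower than MaSC and 11 lower than LP, against 28.1% and 24.2% of all genes. Of 10 antagonists MaSC has 9 higher than ML, against 27.1% of all genes.

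The list of other ligands had 7 genes tested, of which Bmp1 encodes a procollagen proteinase and no ligand of the family. Bmp2 was highest in AL, with mean intensities of 2005 ± 491 in AL, 773 ± 523 in ALP, 450.2 ± 27.5 in MaSC, 383 ± 45.6 in LP and 87.3 ± 23.9 in ML (SD, n = 3 each). It was at least 14.3-fold higher in AL than in ML, with ML arrays counted at their medians (adjusted p = 2.78e-06), and higher in AL than in LP (5.14-fold, adjusted p = 0.000537). Bmp7, a BMP made by many epithelia, averaged 2018 ± 588 in MaSC and 29.3 ± 16.3 in LP, where no array exceeded its median (at least 12.1-fold, adjusted p = 4.61e-05), and it was lower in AL than in MaSC (8.31-fold, adjusted p = 0.00193). Bmp5 and Gdf10, a ligand also called BMP3b, were highest in ALP. No array outside ALP exceeded its median for Bmp5. That gene thus met the filter only through ALP, and its calls for ALP are not independent of the filter. Bmp5 averaged 68.9 ± 20.8 in AL and 499 ± 339.6 in ALP (at least 2.85-fold, adjusted p = 0.000793), and Gdf10 averaged 1368 ± 979 in ALP and 17.1 ± 6.26 in ML (at least 8.51-fold, adjusted p = 1.03e-05). Within ALP both were highest on replicate 3, with 252, 358 and 886 for Bmp5 and 739, 868 and 2496 for Gdf10. That array also had the highest fibroblast (127785), pericyte (21882), immune and endothelial marker sums, and their part in these levels was not tested. Without it Bmp5 was still called lower in AL than in ALP (-2.16, adjusted p = 0.00151) and Gdf10 higher in ALP than in ML (5.62, adjusted p = 1.99e-05), whereas Gdf10 in ALP against MaSC (1.53, adjusted p = 0.0465) was not called (0.98, adjusted p = 0.165).

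Of the 10 other receptors tested, 2 were lower in AL than in ALP, 4 than in MaSC, 3 than in LP and 3 than in ML, and 0, 1, 0 and 2 were higher. Over all genes 21.2%, 28.1%, 24.2% and 24.8% were lower in AL, and 18.7%, 31.3%, 21.3% and 28.7% higher. The counts of receptors lower in AL lay near these shares. Bmpr2, the type II BMP receptor, was lower in AL than in each other population, with means of 5108 in AL, 6957 in ALP, 8042 in MaSC, 6542 in LP and 6545 in ML and folds of 1.28 to 1.58. Bmpr1b, a type I BMP receptor, averaged 87.5 ± 31.9 in LP and 1094 ± 499 in ML (at least 6.33-fold, adjusted p = 0.00153) and was also lower in AL than in ML (at least 6.79-fold, adjusted p = 0.00145), no LP or AL array being above its median. Without its ML arrays Bmpr1b would not have met the filter, so these calls are not independent of it. Eng, the endoglin co-receptor and also 1 of the endothelial markers, was lower in AL than in ML (6.97-fold, adjusted p = 0.000404) and ALP (5.05-fold, adjusted p = 0.00247), the last by 3.21-fold without ALP replicate 3 (adjusted p = 0.00225). The AL intensities of Eng, 142, 175 and 154, lay near the AL array medians of 147.5 to 158.5. Amhr2, the type II receptor of anti-Müllerian hormone, was higher in AL than in MaSC, where it stayed below the median (at least 1.39-fold, adjusted p = 0.00056).

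Smads, their partners and the ubiquitin ligases that act on them, 14 tested, were lower in AL than in ALP for 8, than in MaSC for 10, than in LP for 11 and than in ML for 5, and 0, 0, 1 and 2 were higher in AL. The medians of their log2 differences were -0.29, -0.55, -0.41 and -0.15, against -0.02, 0.05, -0.03 and 0.03 over all genes. Of all genes, 21.2%, 28.1%, 24.2% and 24.8% were called lower in AL, and 18.7%, 31.3%, 21.3% and 28.7% higher. Smad5, a Smad of the BMP branch, averaged 1546 ± 51.3 in AL and 3391 ± 296 in MaSC (2.19-fold, adjusted p = 2.3e-06) and was lower in AL than in each other population. Smad7, the inhibitory Smad that TGF-beta induces, averaged 2573 ± 124 in AL and 6039.7 ± 457 in MaSC (2.34-fold, adjusted p = 6.94e-06). Smurf1, a ubiquitin ligase for Smads, was lower in AL than in LP (1.89-fold, adjusted p = 5.47e-05). Tgif2, a Smad co-repressor, was instead higher in AL than in LP (3.72-fold, adjusted p = 0.00057), with means of 3159 ± 486 in AL and 866 ± 246 in LP.

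In the list for the latent complex and its activation, 9 genes were tested. Against ML, 5 were higher and 3 lower in AL (over all genes 28.7% and 24.8%), 5 and 0 in ALP (21.1% and 15.6%), 5 and 1 in MaSC (27.1% and 32.4%), and 6 and 0 in LP (27.3% and 21.7%). AL had 5 lower and 0 higher than ALP, where 21.2% and 18.7% of all genes were. Against MaSC, 5 were lower and 1 higher in AL (28.1% and 31.3%), and against LP 4 and 1 (24.2% and 21.3%). The fibroblast marker sum was lowest in ML and its part in the differences from ML was not tested. Ltbp2, a relative of Ltbp1, averaged 9819 ± 398 in MaSC and 787 ± 211 in ML (12.8-fold, adjusted p = 1.19e-07). Ltbp4 was lower in AL than in MaSC (16.03-fold, adjusted p = 8.6e-05), with means of 120.4 ± 38.9 in AL and 1881 ± 259 in MaSC. Its AL intensities were 100, 165 and 95.9 beside AL array medians of 147.5 to 158.5, so this fold depends on signal near background. Itgb8, the integrin beta subunit that frees latent TGF-beta, was higher in LP than in ML (7.46-fold, adjusted p = 4.66e-05), and Thbs1, the activator thrombospondin, was higher in AL than in ML (4.13-fold, adjusted p = 3.69e-05).

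Among the extracellular antagonists, 10 tested, 6 were higher and 2 lower in AL than in ML, against 28.7% and 24.8% of all genes. In ALP 8 were higher than in ML, in MaSC 9 and in LP 8, against 21.1%, 27.1% and 27.3% of all genes, and 0 were lower. AL had 4 lower and 1 higher than ALP, where 21.2% and 18.7% of all genes were. Against MaSC, 7 were lower and 1 higher in AL (28.1% and 31.3%), and against LP 3 and 1 (24.2% and 21.3%). Fstl3, which binds activins, averaged 148 ± 3.37 in AL, just under the medians, and 2642 ± 724 in MaSC (at least 17.1-fold, adjusted p = 3.59e-08). Bambi, a pseudoreceptor that blunts TGF-beta signalling, averaged 1132 ± 258 in MaSC and 63.9 ± 8.91 in ML (at least 8.10-fold, adjusted p = 2.45e-07). Fstl1 had means of 2505 to 5534 over AL, ALP, MaSC and LP, against 23.4 ± 10.9 in ML, far below the array median. Bgn, the matrix proteoglycan biglycan, averaged 11644 ± 114 in MaSC and 241 ± 137 in ML (54.9-fold, adjusted p = 7.74e-07). The fibroblast marker sum, again, was lowest in ML and its part in these differences was not tested.

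Genes known to be induced by TGF-beta in various cells, 15 tested, were lower in AL than in ALP for 7, than in MaSC for 6, than in LP for 6 and than in ML for 3, and 0, 4, 3 and 6 were higher in AL. Over all genes the shares in these pairs were 21.2%, 28.1%, 24.2% and 24.8% lower and 18.7%, 31.3%, 21.3% and 28.7% higher in AL. Pmepa1, a target that dampens Smad signalling, averaged 5546 ± 394 in AL, 9958 ± 456 in ALP, 12084 ± 587 in MaSC, 10846 ± 381 in LP and 8438 ± 279 in ML and was lower in AL than in each, by 1.52 to 2.18-fold. Cdkn1a, which encodes the cell cycle inhibitor p21, averaged 2633 ± 338 in AL and 6254 to 9135 as means of the other populations, and was lower in AL by 2.38 to 3.49-fold. Ccn2, which encodes connective tissue growth factor, was instead lowest in ML, with 6470.3 ± 454 in AL and 1182 ± 159.6 in ML (5.50-fold, adjusted p = 1.29e-07). Col1a1, a collagen gene that is also 1 of the fibroblast markers, averaged 7665 ± 850.3 in AL, 7709 ± 2323 in ALP, 536 ± 205 in MaSC, 4847 ± 1269 in LP and 98.8 ± 27.5 in ML.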

How the data were processed

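RNA of sorted cells was amplified and hybridised by the authors to Affymetrix arrays, and the deposited values were intensities of each probe set on each array, normalised by the authors with dChip. The dChip version, expression model, background handling and baseline array were not given in the sources used here. The values were linear, with 659 values of 0 among 45101 probe sets on 15 arrays. Arrays have no read depth, and 3 arrays per population limit the precision. ALP arrays were registered later than the others, so a batch limited to ALP cannot be told apart from that population.

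Of the probe sets, 64 were controls, 34945 had 1 gene symbol, 932 several and 9160 none, by GEO's platform annotation, and only those with 1 symbol were used. Probe sets above the array median on at least 3 arrays were kept (22143), and each gene was represented by the one with the highest mean log2 intensity (12143 genes). Intensities were floored at 1 and taken to log2. One mean per population was fitted to all 15 arrays (10 residual degrees of freedom) with lmFit and eBayes of limma 3.58.1 in R 4.3.3, and p-values of the 10 pairs were adjusted after Benjamini and Hochberg over the 12143 genes, at 0.05. All tests were two-sided. The fit was tested on simulated data. Figures were drawn with matplotlib 3.10.9.

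Named genes were all 10 members, then, for each pathway list, the 4 genes called in at least 1 pair with the largest moderated t, and for each member the 3 genes of most similar pattern by Pearson correlation, leaving out genes with only a clone, Riken or predicted-gene name. The members, lists and tests were chosen with earlier results of these data known. Alternatives were 16 added to each intensity, other filters on dim probe sets, the mean of a gene's probe sets, median centring, quantile normalisation, only the arrays of the populations compared, array quality weights, the replicate number as a block, the methods' t-test (Student's) and leaving out each array. Promoter sequences came from RefSeq (GRCm38.p6), and the build behind the probe annotation was not used.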

Additional observations from a re-analysis of the deposited data

How the results depend on the processing

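Of the 47 called differences of members, 36 stayed called in all 15 refits that left out 1 array, and 23 in those refits and under every other alternative that tested them. Of these 23, 2 belong to Inhba, which passed the filter only through LP and was not tested when 6 arrays had to exceed the median. Calls were lost for 16 by the methods' t-test, for 11 with only the arrays of the populations compared, for 9 with median centring, for 6 without a filter on dim probe sets, for 3 with quantile normalisation, and for 2 with array weights. The causes were not tested. Among called differences, signs turned only for Tgfbr2 when probe sets were averaged (0.22 against MaSC, 0.0049 against LP and 0.049 against ML, AL first). Of the 53 that were not called, 21 changed sign and 25 were called in their own direction under at least 1 alternative or refit. Of those given with values, signs turned for Inhbb in AL against MaSC with array weights (-0.13; leaving out 1 array gave -0.34 to 0.41) and for Tgfb1 in AL against LP without AL replicate 1 (leaving out 1 array gave -0.30 to 0.10). Counts of members called moved by over 1.5 times for AL against ALP (2 by the methods' t-test), ALP against MaSC (3 without a filter, 0 with only those arrays, 0 by the t-test and 2 by it unadjusted), ALP against LP (1 with centring, 1 with quantile normalisation, 3 with array weights, 3 by the unadjusted t-test), ALP against ML (7 with weights, 2 by the t-test), MaSC against LP (7 with weights) and MaSC against ML (3 by the t-test, 3 unadjusted). Leaving out 1 array gave 2 to 5 members for AL against ALP, 4 to 6 against MaSC, 4 to 5 against LP and 7 to 8 against ML, 2 to 5 for ALP against MaSC, 0 to 1 against LP and 4 to 6 against ML, 4 to 5 for MaSC against LP, 4 to 7 for MaSC against ML, and 5 to 7 for LP against ML. Over all genes, called counts were 4849 for AL against ALP (7380 with weights, 2832 by the t-test), 4665 for ALP against MaSC (1349 with only those arrays, 168 by the t-test), 915 for ALP against LP (1619 centred, 4 with only those arrays, 4225 with weights, 596 with the replicate block, 0 by the t-test, 259 to 1984 leaving out 1 array) and 4452 for ALP against ML (7851 centred, 2739 with only those arrays, 1293 by the t-test). With centring, the share of these calls that were higher in the population named first was 73.9%, against 46.9% as normalised, for AL against ALP, 60.1% against 46.9% for AL against LP, 41% against 53.7% for AL against ML, 37.3% against 56.6% for ALP against MaSC, 28.4% against 47.5% for ALP against LP, 18.7% against 57.5% for ALP against ML, 27.9% against 45.6% for MaSC against ML and 30.3% against 55.7% for LP against ML. Replicate numbers were not found to pair the arrays (same-number correlations of -0.23 to 0.21, with 5 of 15 arrays correlating best with their own number). With the number as a replicate block over all 15 arrays, the counts of members were 4, 6, 5 and 7 for AL, 4, 0 and 4 for ALP, 4 and 6 for MaSC and 6 for LP, in the order of pairs given for leaving out 1 array, and over the 9 arrays of MaSC, LP and ML they were 4, 5 and 5. The block over 15 arrays ended the calls of Tgfb2 in AL against MaSC (adjusted p = 0.058) and Tgfbr1 in ALP against MaSC (adjusted p = 0.0556) and added Inhba in AL against MaSC (adjusted p = 0.0384). That over 9 arrays ended those of Inhba in MaSC against ML (adjusted p = 0.0808) and Tgfb3 in LP against ML (adjusted p = 0.0539). Whether a number marks 1 of the 3 suspensions was not stated.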

Other observations

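For each member, the 3 genes whose log2 intensity followed it most closely over the 15 arrays were found by Pearson correlation, a description over 5 populations of 3 arrays with no test. Genes with only a clone, Riken or predicted-gene name were left out of the ranking. The closest match was that of Tgfbr3, with Antxr1 (r = 0.997), Dpysl3 (0.990) and Plxdc2 (0.989), followed by that of Inhbb, with Serinc3 (0.987), Cystm1 (0.972) and Myl12b (0.966). Tgfb2 was followed by Cse1l (0.986), Sertad4 (0.980) and Srgap3 (0.974), and Tgfb1 by Itm2c (0.976), Lfng (0.972) and Pld3 (0.966). Tgfbr1 was followed by Bend3 (0.957), Ccdc86 (0.952) and Ncs1 (0.951), Inhba by Ptpn23 (0.951), Prkab2 (0.934) and Mafg (0.908), and Ltbp1 by Pla2g4a (0.935), Klk11 (0.913) and Arhgap6 (0.898). For Tgfb3 the genes were Rgs16 (0.925), Cish (0.924) and Mertk (0.913), for Tgfbr2 Cyp4v3 (0.911), Pcyt1a (0.905) and Ccdc157 (0.877), and for Bmp4 Adh7 (0.881), Dhx58 (0.865) and Mcoln2 (0.860). Among the members themselves, Tgfbr1 and Tgfbr3 correlated at 0.860, Tgfb2 and Tgfbr3 at 0.782 and Inhbb and Ltbp1 at 0.777.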
